A study of Mus musculus with 2 samples.

Results

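Pancreatic digestive enzyme transcripts were followed outside acinar cells in 2 single-cell libraries of mouse proximal small intestine. The members were 10 genes of the acinar secretory programme (Ctrb1, Try4, Try5, Prss2, Clps, Cela3b, Cela2a, Pnlip, Rnase1 and Cela1), out of 31053 features in each matrix. They were chosen by their measured level in a set of acinar barcodes of mouse 1, so their level there is a description and not a result. A barcode stands for 1 droplet, ideally 1 cell, and a UMI for 1 captured RNA molecule. Barcodes with over 100 genes, over 400 UMIs, under 5% mitochondrial and under 10% haemoglobin UMIs were kept, and a kept barcode was called acinar where the 10 members took 20% or more of its UMIs. This left 7781 of 9645 barcodes outside acinar cells in mouse 1 and 6957 of 8800 in mouse 2. Mouse 1 had 160 acinar barcodes and mouse 2 had 0. Of the 160, 157 lay in a cluster of 164 barcodes that was named from acinar genes other than the members. The 3 acinar barcodes nearest to the limit had 20.1%, 23.5% and 24.2% of their UMIs in members, and the 3 nearest below it had 19.1%, 18.4% and 17.2%.

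Both animals, called APC, carried Villin-CreERT2 with Apc fl/fl. In this line the Villin promoter drives a tamoxifen-dependent Cre in gut epithelium, so both floxed copies of Apc can be deleted there and immune cells keep theirs. Both received 2 intraperitoneal doses of 2 mg tamoxifen 24 h apart and were sampled on day 4, from the stretch 5 to 15 cm along the small intestine. There was 1 group of 2 mice and no control library, so all comparisons were between cell classes or between libraries. The libraries held 85670711 UMIs in mouse 1 and 38716743 in mouse 2, and the median kept barcode outside acinar cells had 4388 and 2803 UMIs. The libraries shared 24 barcode sequences, of which 0 were acinar in mouse 1.

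Acinar cells make and store the enzymes that digest food in the upper intestine, and they devote most of their messenger RNA to them. Ctrb1 encodes a chymotrypsinogen, and Try4, Try5 and Prss2 encode trypsinogens. Cela1, Cela2a and Cela3b encode elastase-type proteases. Pnlip encodes pancreatic lipase, Clps its cofactor colipase and Rnase1 a secreted ribonuclease. In droplet sequencing, RNA released into the cell suspension can be captured with any cell, so an enzyme transcript beside a lymphocyte barcode does not by itself show that the lymphocyte made it.

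All 10 members were found as protein-coding genes in the GENCODE M21 annotation of GRCm38, the assembly that mm10 names. Ctrb1 lies on the minus strand at chr8:111686519-111691010 with 7 exons in its longest transcript. The trypsinogens share a stretch of chromosome 6, with Try4 at chr6:41302269-41305532, Try5 at chr6:41311233-41316841 and Prss2 at chr6:41521787-41525079. Cela3b lies at chr4:137420999-137430540 and Cela2a at chr4:141814962-141826160. Pnlip lies at chr19:58652498-58681788, Clps at chr17:28558149-28560766, Rnase1 at chr14:51144998-51146785 and Cela1 at chr15:100674421-100687921. The last 300 transcript bases of Try4 and Try5 were 96.3% identical, with 45 windows of 60 bases in common, so the split of UMIs between these trypsinogens is uncertain. Identity of the same stretch was 81.8% between Try4 and Prss2, which had 0 such windows in common.

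RefSeq promoter windows (GRCm38.p6) were given for 8 of the 10 members. They were searched on both strands for CACCTG and TTTCCC, which do not overlap each other and are the E box and TC box bound by PTF1, the transcription factor complex of acinar cells. CACCTG stood in 5 of the 8 windows of 250 bases before the start, TTTCCC in 4 and both in 3. Over all 27025 genes with a window, 19.4% held CACCTG, 24.4% held TTTCCC and 4.20% held both. The windows of 3 members are shown, 5′ to 3′ on the gene's strand with the matches in capitals, because Ctrb1 and Prss2 were among the members detected in mouse 1 and at or near 0 in mouse 2, and Cela1 was the member found in many barcodes of both mice. They cover chr8:111691011-111691260 (Ctrb1, minus strand), chr6:41521526-41521775 (Prss2, plus strand) and chr15:100687921-100688170 (Cela1, minus strand).
Ctrb1: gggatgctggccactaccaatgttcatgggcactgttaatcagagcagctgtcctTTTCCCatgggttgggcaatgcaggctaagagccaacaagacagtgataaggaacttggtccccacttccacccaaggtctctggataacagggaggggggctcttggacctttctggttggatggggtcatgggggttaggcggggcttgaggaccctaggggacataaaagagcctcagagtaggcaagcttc
Prss2: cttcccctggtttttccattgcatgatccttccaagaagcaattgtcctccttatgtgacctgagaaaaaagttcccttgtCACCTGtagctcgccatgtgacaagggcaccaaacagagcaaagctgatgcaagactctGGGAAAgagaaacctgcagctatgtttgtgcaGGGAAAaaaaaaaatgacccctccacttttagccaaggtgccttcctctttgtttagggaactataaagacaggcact
Cela1: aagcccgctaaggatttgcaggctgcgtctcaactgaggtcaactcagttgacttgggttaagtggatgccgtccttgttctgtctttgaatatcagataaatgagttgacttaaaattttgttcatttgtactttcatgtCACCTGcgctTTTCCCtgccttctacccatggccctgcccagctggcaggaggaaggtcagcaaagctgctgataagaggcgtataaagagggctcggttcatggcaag
The Cela1 window held both boxes with 4 bases between them. The Ctrb1 window held TTTCCC alone, and the Prss2 window held CACCTG with 2 matches to TTTCCC on the other strand. A match describes letters and not binding.

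In mouse 1 nearly every barcode outside acinar cells carried enzyme transcripts. The 10 members gave 97022 UMIs there, or 0.122% of all UMIs (exact Poisson 95% interval 0.121 to 0.123). At least 1 member UMI was found in 7747 of 7781 barcodes, or 99.6% (exact Clopper-Pearson interval 99.4 to 99.7), and 34 barcodes had 0. The median barcode held 9 member UMIs, with an interquartile range of 6 to 13 and 5th and 95th percentiles of 3 and 22. In mouse 2 the members gave 1916 UMIs, or 0.00540% of UMIs, and 1128 of 6957 barcodes (16.2%) held at least 1. Intervals here and below cover counting error only. With 1 library per mouse, the difference between mice has no replicate check and no test.

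All 10 members were detected outside acinar barcodes of mouse 1. Ctrb1 was the most abundant, with 279 CPM (UMIs per 1000000 UMIs of the barcodes summed) outside acinar barcodes and a UMI in 82.2% of them. Try4 followed with 209 CPM in 76.1% of barcodes and Prss2 with 184 in 73.0%. Try5 had 111 CPM (57.4% of barcodes), Cela2a 91.4 (47.2%) and Clps 89.0 (46.9%). Rnase1 was lowest with 52.4 CPM in 29.5% of barcodes, and Cela1, Cela3b and Pnlip lay between 61.3 and 77.5 CPM. Because 3′ counting gives about 1 UMI per captured molecule whatever the transcript's length, these levels need no correction for length. The order of Try4, Prss2 and Try5 is less certain. Of windows of 60 bases at the transcript end, Try4 shared 45 with Try5 and 38 with Try10, another trypsinogen gene, and Prss2 shared 22 with Try10. Levels in acinar barcodes were 285 (Cela1) to 545 (Clps) times higher, a description only, since the members' share of UMIs defined those barcodes.

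In mouse 2 the members fell into groups by their level. Ctrb1, Try5, Cela3b, Cela2a and Pnlip each had 0 UMIs in 6957 barcodes, which allows up to 0.0846 CPM. Try4 had 2 UMIs in 1 barcode, and Prss2 had 11 UMIs in 6 barcodes, of which 3 were T-cell- or innate-lymphoid-like, 3 were in unnamed clusters and 0 were epithelial. By contrast Clps had 258 UMIs in 33 barcodes, Rnase1 168 UMIs in 24 barcodes, and Cela1 1477 UMIs in 1083 barcodes. The 7 genes at or near 0 in mouse 2 (Ctrb1, Try4, Try5, Prss2, Cela3b, Cela2a and Pnlip) are summed below as the 7 enzymes, and Clps, Rnase1 and Cela1 are described by themselves. This split was made after the values of mouse 2 were seen. None of the 7 mouse 2 barcodes with a UMI of the 7 enzymes had a barcode sequence of mouse 1.

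The 7 enzymes were spread over all cell classes of mouse 1 at a nearly equal number of molecules per barcode. Classes were named from fixed marker genes after clustering without the members. T-cell- or innate-lymphoid-like barcodes (3040) had a median of 6 UMIs of the 7 enzymes, with an interquartile range of 4 to 9. Enterocyte-like barcodes (827) had a median of 7 with a range of 5 to 11, and B-cell-like barcodes (455) a median of 7 with a range of 4 to 11. Myeloid-like barcodes (813) had a median of 7 and crypt-type epithelial barcodes (217) of 8. Plasma-cell-like barcodes (2205) had the highest median, 9 UMIs with a range of 6 to 12. The interquartile ranges of all 6 classes overlapped, although the median depth of a barcode ran from 3181 UMIs in the T-cell- or innate-lymphoid-like class to 22398 in the plasma-cell-like class.

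**Figure D1:**
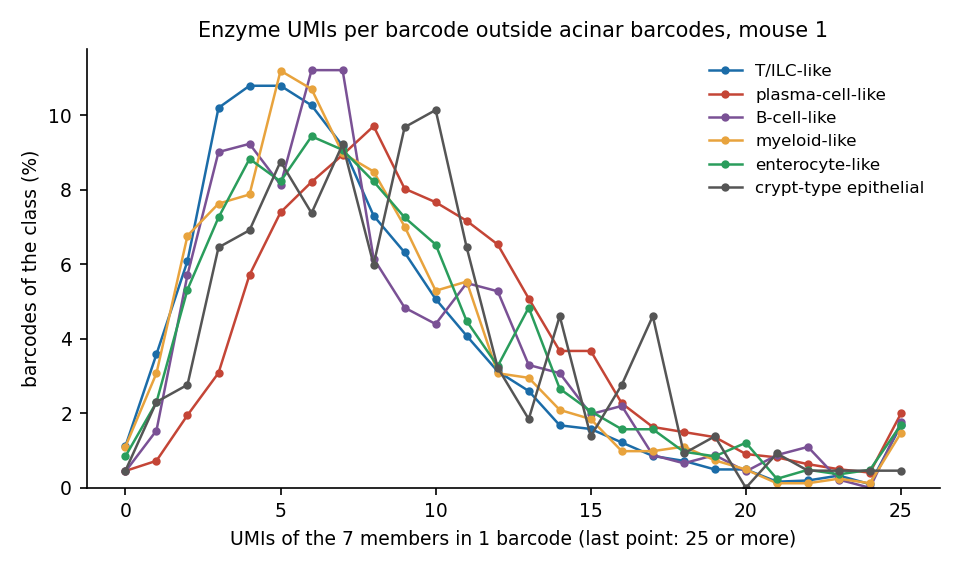
UMIs of the 7 enzymes in 1 barcode (x axis) against the percentage of barcodes of each class (y axis) in mouse 1, with barcodes of 25 or more UMIs gathered in the last point. All 6 classes peak between 4 and 10 UMIs, and barcodes with 0 are rare in each.

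As shares of all UMIs the classes at both ends changed places. The 7 enzymes reached 2483 CPM in T-cell- or innate-lymphoid-like barcodes, 1562 in myeloid-like, 1475 in B-cell-like, 1397 in enterocyte-like, 798 in crypt-type epithelial and 503 in plasma-cell-like barcodes. When each barcode was thinned to 1000 UMIs, 82.1% of T-cell- or innate-lymphoid-like and 39.7% of plasma-cell-like barcodes still held a UMI of the 7 enzymes, against 98.9% and 99.5% before thinning. The plasma-cell-like class was thus highest by median count per barcode and lowest by share of UMIs. By mean count the myeloid-like class was highest, with 12.6 UMIs against 11.3 in plasma-cell-like barcodes. That mean and the myeloid-like CPM rest in part on 2 of 813 barcodes, which held 3991 of the class's 10275 UMIs. In the plasma-cell-like class, 10 of 2205 barcodes held 3233 of 24921. In sums of this kind, fewer barcodes with a transcript and fewer molecules per barcode cannot be told apart, so both measures are given.

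Within each class barcodes were ranked by depth and split into 4 sets of nearly equal size. In enterocyte-like barcodes the median was 7, 7, 7 and 8 UMIs of the 7 enzymes from the shallowest to the deepest set, while the median depth rose from 852 to 12640 UMIs and the level fell from 9571 to 638 CPM. T-cell- or innate-lymphoid-like barcodes had medians of 7, 7, 6 and 6 between 1924.5 and 4735.5 UMIs of depth. Plasma-cell-like barcodes had medians of 9, 9, 8 and 9 between 9138 and 32267 UMIs. The highest and lowest set differed by more in the other classes. Crypt-type epithelial barcodes had medians of 7, 7.5, 8.5 and 10 between 689 and 23726 UMIs of depth, B-cell-like barcodes 7, 6, 7 and 9 between 2524 and 14176, and myeloid-like barcodes 6, 7, 6 and 8 between 1189 and 17096.

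**Figure D2:**
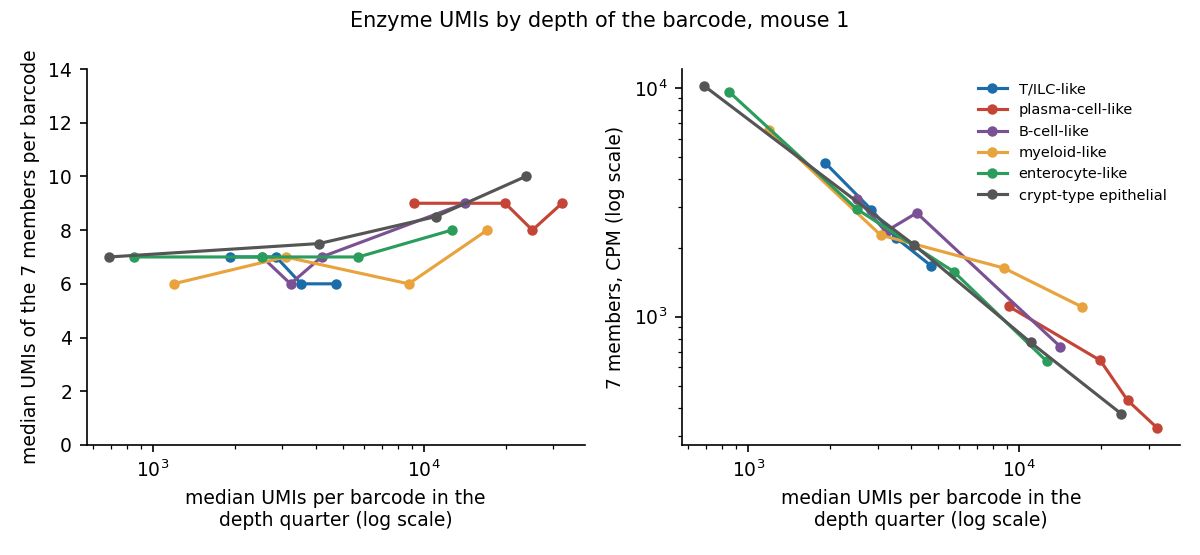
Median UMIs of the 7 enzymes per barcode (left y axis) and their level in CPM (right panel, log scale) against the median depth of each set of barcodes (x axis, log scale) in mouse 1, with 4 depth sets per class. The medians stay between 6 and 10 UMIs while the CPM falls with depth in every class but the B-cell-like, where the third set lies above the second.

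A small number of barcodes held many more molecules. In mouse 1, 63 barcodes had 0 UMIs of the 7 enzymes, 189 had 1, 1606 had 2 to 4, 3369 had 5 to 9 and 2254 had 10 to 19. Another 243 had 20 to 49 and 23 had 50 to 99. The 34 barcodes with 100 or more held 18.3% of the UMIs of the 7 enzymes. The 1% of barcodes with the most (78 barcodes, each with 38 or more) held 21.5%, and the upper 50% held 78.2%. The fullest barcode had 2600 of its 26791 UMIs in the 7 enzymes and was myeloid-like. Of the 34, 12 were T-cell- or innate-lymphoid-like, 10 plasma-cell-like, 4 B-cell-like, 2 enterocyte-like and 2 myeloid-like, and 4 lay in the acinar-like cluster below the 20% limit. These barcodes had a median depth of 4921 UMIs. Doublets were not removed, and whether these barcodes hold an acinar cell beside another cell was not tested.

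The variance of the 7 enzymes' UMIs was 202.5 times their mean over all 7781 barcodes, where pure counting error gives a ratio of 1. Over the 6 classes it ran from 2.72 in crypt-type epithelial barcodes, of which 0 had 100 or more UMIs of the 7 enzymes, to 842 in myeloid-like barcodes, which included the fullest barcode. The 366 barcodes with members at 1% to 20% of UMIs were 4.70% of the total and held 24.6% of the member UMIs. Their median depth was 897 UMIs against 4619 in the rest, and 204 of them had under 1000 UMIs. They held a median of 13.5 UMIs of the 7 enzymes, against 7 over all barcodes outside acinar cells. The medians of the 6 classes ran from 10.5 in crypt-type epithelial to 97.5 in B-cell-like barcodes, of which 8 were counted. The 5 in the acinar-like cluster had a median of 364.

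The 7 enzymes kept nearly constant proportions to each other in every class of mouse 1. Ctrb1 made up 26.7% to 28.7% of their UMIs over the 6 classes, Try4 20.5% to 21.9% and Prss2 17.9% to 18.8%. Try5 ranged from 9.86% to 12.6%, the widest span of the 7 with 2.76 percentage points. Cela2a ranged from 7.65% to 9.93%, Cela3b from 6.29% to 7.14% and Pnlip from 5.65% to 6.57%. Acinar barcodes had more Ctrb1 (32.7%) and Cela3b (8.13%) and less Try4 (17.8%) and Prss2 (16.8%) than any of the 6 classes, and their Try5, Cela2a and Pnlip shares lay inside the class ranges. Barcodes outside acinar cells with members at 1% to 20% of UMIs had 31.9% Ctrb1, between the 27.9% of all outside barcodes and the acinar value. Their Try4 share (19.2%) lay between these sets as well, and the other shares did not. Try5 (9.18%), Prss2 (16.7%) and Cela3b (6.11%) were below both sets, and Cela2a (10.5%) and Pnlip (6.42%) were above both. Acinar barcodes differed among themselves, since Cela3b made up 4.42% of the 7 enzymes in the 68 with under 2000 UMIs and 8.30% in the 92 deeper ones.

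**Figure D3:**
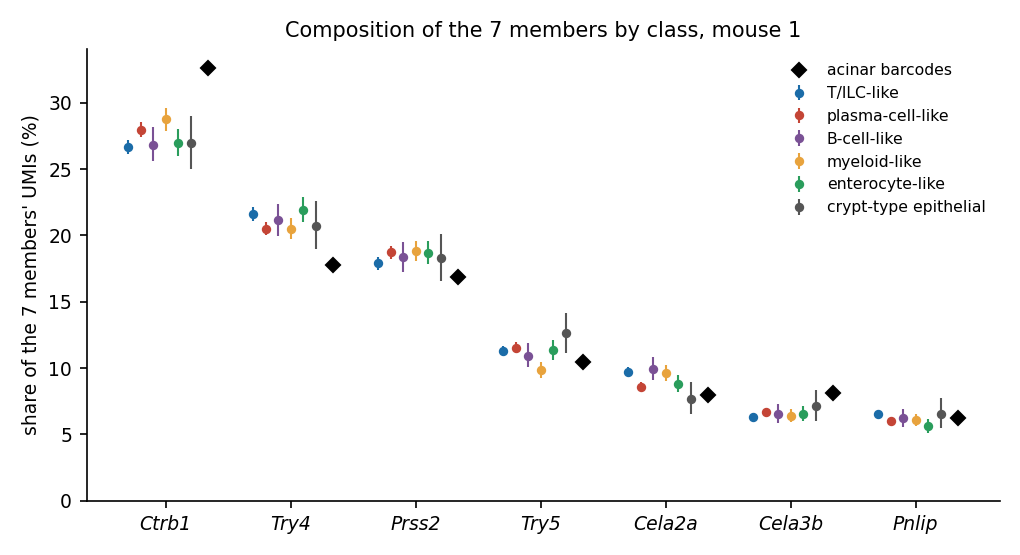
Share of each of the 7 enzymes in their summed UMIs (y axis, %) for 6 classes of mouse 1 (circles with exact 95% binomial intervals) and for the acinar barcodes (diamonds). For each gene the classes lie close together, and the acinar value of Ctrb1, 32.7%, lies above all of them.

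Most other listed genes of the acinar programme had at least 1 UMI outside acinar barcodes of mouse 1. Of 40 further acinar genes listed, 38 were measured, and 34 of these had a UMI outside acinar barcodes in mouse 1 and 19 in mouse 2. A single UMI was enough for these counts, and no share over all features is given beside them. The 6 with the highest acinar level were Reg1, 2210010C04Rik, Sycn, Cpa1, Cpb1 and Zg16. Sycn, a zymogen granule protein, stood at 20743 CPM in acinar barcodes, 54.8 outside them and 0 UMIs in mouse 2. The carboxypeptidase gene Cpa1 had 20598 and 38.8 CPM with 0 UMIs in mouse 2, and Cpb1 had 17750 and 36.9 with 1 UMI. Reg1, a secreted lectin, had 35443 and 106.7 CPM and 76 UMIs in mouse 2, and 2210010C04Rik had 27966 and 64.0 with 1 UMI. Zg16, a secreted lectin that goblet cells also make, had 16461 and 85.8 CPM and stood at 152.8 CPM in mouse 2. The level outside acinar barcodes was 0.185% to 0.270% of the acinar level for the 7 enzymes (median 0.245%). It was a median of 0.218% over the 12 listed genes with at least 1000 CPM in acinar barcodes and at most 1 CPM in mouse 2. Tff2, a trefoil peptide of mucous glands, was far above the rest at 23.0%. It had 928 CPM outside acinar barcodes of mouse 1 and 0 UMIs in mouse 2, and was a leading gene of the crypt-type cluster. The 12 genes were chosen for being near 0 in mouse 2, as the 7 enzymes were. The acinar barcodes were set by the members' own share of UMIs and not by the 12 genes, so the 2 sets of values are descriptions. The 7 listed genes above 1 CPM in mouse 2 had 0.301% (Reg1) to 142% (Sel1l) of their acinar level outside acinar barcodes of mouse 1. Spink1, a trypsin inhibitor, had 5.77%, and the transcription factor gene Bhlha15, which plasma cells also express, had 83.9%. Among the 5 genes most like the summed members over 12 class-by-mouse sums, by Pearson's r of log2(CPM + 1) out of 11036 genes, were Klk1 (0.886), Pnliprp1 (0.886), 2210010C04Rik (0.853) and Cpb1 (0.852), all on the acinar list. Klk1 had 649 UMIs in mouse 2, of which the sums held 19, and its level over all barcodes outside acinar cells was 16.7 CPM in mouse 1 and 18.3 in mouse 2, unlike the 7 enzymes. These sums share their library and depth, and the mice differ in nearly every one, so r describes the contrast between mice as much as that between classes.

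**Figure D4:**
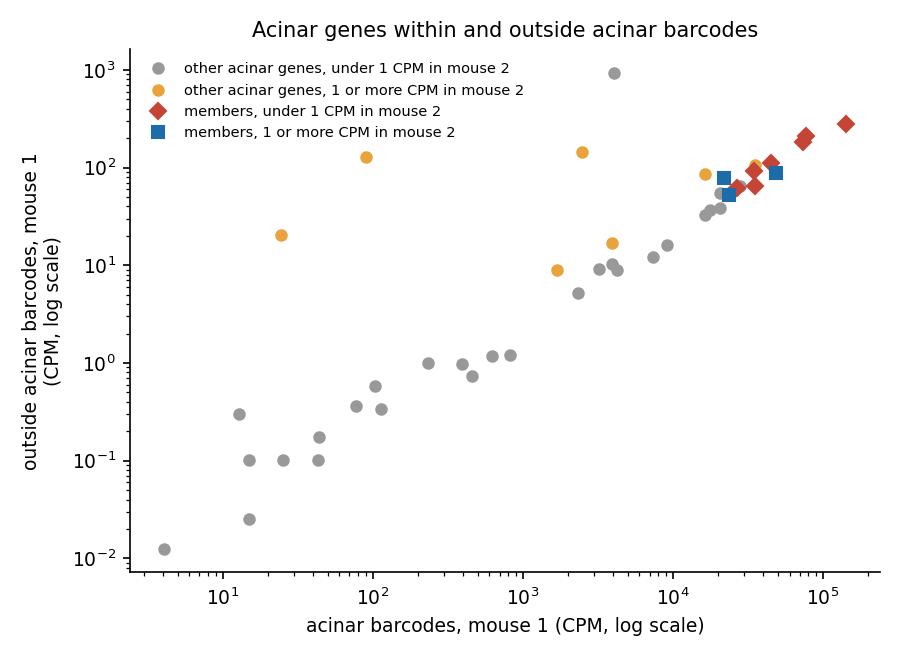
Level of the members and of the other acinar genes in acinar barcodes (x axis) and outside them (y axis) in mouse 1, both in CPM on log scales, coloured by their level in mouse 2. Most genes under 1 CPM in mouse 2 lie along a line. Tff2 lies far above it, Nr5a2 (12.9 against 0.302 CPM, from 24 UMIs outside) lies above it as well, and Cela1 (22073 against 77.5 CPM) lies slightly above the other members.

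Transcripts of other abundant cell types gave a scale for these values. In T-cell- or innate-lymphoid-like barcodes of mouse 1 the 7 enzymes averaged 8.29 UMIs and were found in 98.9% of barcodes. Jchain, the joining chain of secreted antibody made by plasma cells, averaged 8.32 UMIs there in 99.5% of barcodes, and the antibody genes Igha and Igkc averaged 28.0 and 49.6. The enterocyte fatty acid binding protein genes Fabp1 and Fabp2 averaged 0.115 and 0.122 UMIs, the apolipoprotein gene Apoa1 0.0454 and the myeloid lysozyme gene Lyz2 0.0569. Set against the level in their own class, the 7 enzymes reached 0.571%, Fabp1, Apoa1, Fabp2 and Lyz2 0.401% to 0.539%, and the antibody genes 3.60% to 5.34%. The acinar barcodes were chosen by the members' share of UMIs, while the other classes were clusters named from markers. The 0.571% is thus a description and not measured as the other values were. In mouse 2 the same barcode class averaged 1.19 Jchain UMIs and 0.00175 UMIs of the 7 enzymes. Fabp1, Apoa1, Fabp2 and Lyz2 reached 0.0741% to 0.136% of their own class there. What sets these levels was not tested.

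Insulin transcripts were not found beside the enzymes. Ins1 and Ins2, the insulin genes, had 0 UMIs in both mice, within and outside acinar barcodes, which allows up to 0.0377 CPM outside them in mouse 1. Of 7 islet genes listed, Sst had 1 UMI in acinar barcodes and the other 6 had 0. Of the duct genes listed, Muc1 had 81 UMIs there, Krt7 had 1, and 4 had 0. Gcg, made by islets and by gut endocrine cells, had 0 UMIs in mouse 1 and 2905 in mouse 2. Cftr, a chloride channel of duct cells and of gut epithelium, had 223 UMIs outside acinar barcodes in mouse 1 and 56 in mouse 2, and the mucin gene Muc1 had 52 and 20.

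Clps, Rnase1 and Cela1 had class patterns of their own, visible in both mice. Clps in mouse 2 was concentrated in crypt-type epithelial barcodes, a cluster with transit-amplifying, goblet and Paneth markers. It reached 250 CPM there (exact interval 220 to 283), with 251 of the library's 258 UMIs, in 27 of 91 barcodes. Enterocyte-like barcodes of mouse 2 had 0 Clps UMIs, which allows up to 3.46 CPM, and no other named class had more than 3 UMIs. In mouse 1 crypt-type epithelial barcodes had 359 CPM (336 to 384), against 41.2 in plasma-cell-like barcodes and 111 to 166 in the other 4 classes. The crypt-type level was the highest of the 6 classes in both mice, and in mouse 1 every other class was far above its value in mouse 2. By cluster this did not hold in mouse 1, where a myeloid-like cluster led by Pf4 and Ms4a7 had 484 CPM (451 to 520). That value rests largely on 1 barcode, which held 463 of the cluster's 753 Clps UMIs, and the interval does not cover this.

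Rnase1 had the same pattern. Crypt-type epithelial barcodes had 155 CPM in mouse 2 (132 to 182), with 156 of 168 UMIs in 13 barcodes, and 286 CPM in mouse 1 (265 to 308). Enterocyte-like barcodes had 8.08 CPM in mouse 2, from 7 UMIs, and 80.4 in mouse 1. Relative to Ctrb1 in mouse 1, crypt-type barcodes had 1.67 Clps and 1.33 Rnase1 UMIs per Ctrb1 UMI. Acinar barcodes had 0.341 and 0.166, and the other 5 classes had 0.251 to 0.371 and 0.137 to 0.213. The crypt-type ratios thus stood outside the range of all other classes for both genes.

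Within the crypt-type class both transcripts were densest, as a share of UMIs, where Paneth markers were. Paneth cells are granule-filled secretory cells of the crypt base that release defensins and lysozyme. In barcodes with 5% or more of UMIs in Paneth markers, Clps reached 3270 CPM in 16 barcodes of mouse 1 and 2891 in 9 barcodes of mouse 2. Rnase1 reached 2685 and 1545 CPM in the same barcodes. Its value in mouse 2 rested on 31 UMIs in 5 of the 9 barcodes, with 21 of them in 1 barcode. In barcodes with under 1% of UMIs in Paneth markers, Clps had 134 CPM in mouse 1 (196 barcodes) and 62.3 in mouse 2 (73 barcodes), and Rnase1 had 53.1 and 24.9. The intermediate barcodes with 1% to 5% were few, 5 and 9, and in mouse 2 a single barcode of these held 105 of the 138 Clps UMIs. By count per barcode, mouse 2 averaged 15.3 Clps and 11.4 Rnase1 UMIs at 1% to 5%, against 6.44 and 3.44 at 5% or more. Mouse 1 went the other way, with 8.2 and 26.2 UMIs at 1% to 5% against 34.25 and 28.1 at 5% or more. No barcode of either mouse lay between 4% and 6%. The 7 enzymes had 0 UMIs in all crypt-type barcodes of mouse 2, and in mouse 1 they averaged 13.5 UMIs per barcode in the 16 and 8.54 in the 196. These ranges were set after the values were seen and carry no test.

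Cela1 was shared between epithelium and lymphocytes. In mouse 2 its level was 87.8 CPM in enterocyte-like barcodes (69.1 to 110) and 86.7 in T-cell- or innate-lymphoid-like barcodes (81.9 to 91.7), and these intervals overlap. Crypt-type epithelial barcodes had 26.9 CPM (17.7 to 39.1) and myeloid-like barcodes 15.9 (12.3 to 20.1), which overlap as well. B-cell-like barcodes had 7.17, from 3 UMIs, and plasma-cell-like barcodes 1.45 (0.862 to 2.30). Plasma-cell-like barcodes were the deepest, yet 2.64% of them held a Cela1 UMI against 17.7% of T-cell- or innate-lymphoid-like barcodes, and after thinning to 1000 UMIs the shares were 0.660% and 7.65%. In mouse 1 the order was T-cell- or innate-lymphoid-like (233), enterocyte-like (157), myeloid-like (115), B-cell-like (81.4), crypt-type epithelial (68.9) and plasma-cell-like (30.9 CPM). Per Ctrb1 UMI, enterocyte-like barcodes of mouse 1 had 0.417 Cela1 UMIs and T-cell- or innate-lymphoid-like barcodes 0.352, against 0.155 in acinar barcodes and 0.206 to 0.320 in the other 4 classes.

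**Figure D5:**
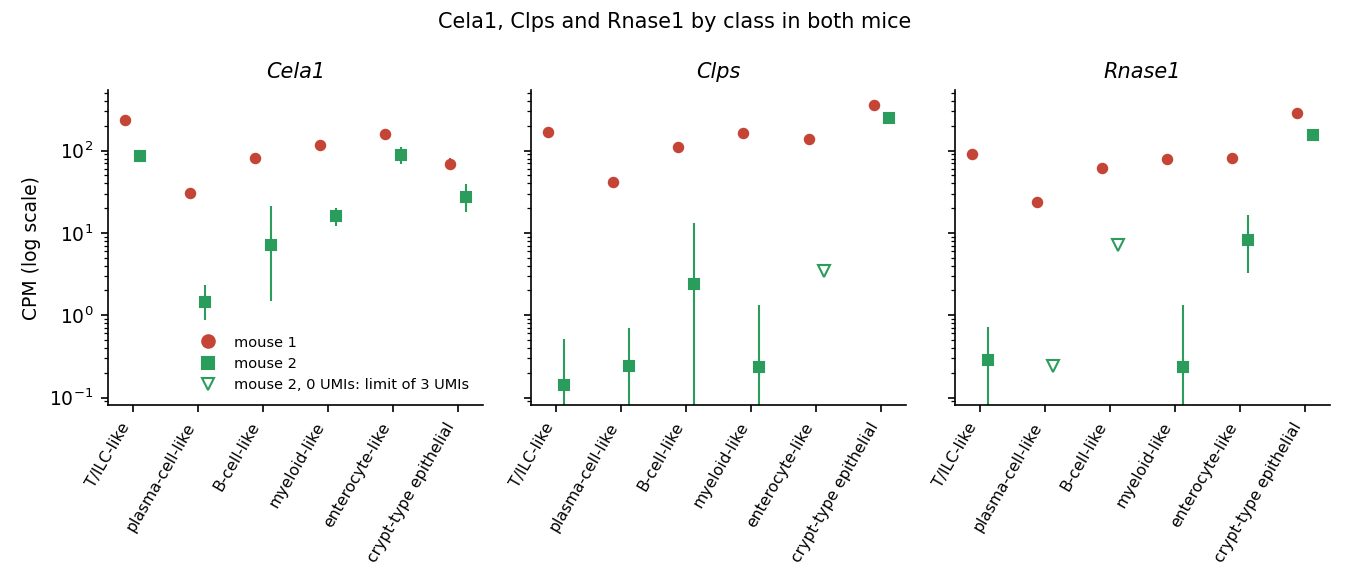
Level of Cela1, Clps and Rnase1 (y axis, CPM, log scale) in 6 classes of mouse 1 (red circles) and mouse 2 (green squares) with exact Poisson 95% intervals, and with the limit of 3 UMIs (open triangles) where mouse 2 had 0. Clps and Rnase1 are highest in crypt-type epithelial barcodes in both mice, and Cela1 is high in T/ILC-like (T-cell- or innate-lymphoid-like) and enterocyte-like barcodes of mouse 2 and lowest in plasma-cell-like barcodes.

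Among the lymphocyte clusters Cela1 was uneven in both mice. A cluster led by Klra5, Klre1, Itgad and Gzma, genes of cytotoxic lymphocytes, had 139 CPM in mouse 2 with a UMI in 31.3% of barcodes, and 273 in mouse 1. A cluster led by Cd6 and Cd8b1 had 37.3 and 160 CPM. A cluster led by Foxp3 and Tnfrsf4, genes of regulatory T cells, had 19.9 and 142 CPM, the former from 9 UMIs. Cela1 per Ctrb1 UMI in mouse 1 was 0.550, 0.246 and 0.232 in these clusters. The cluster at the shallowest depth, led by Mcam and Itga1, had 83.7 to 107 CPM (exact interval) in mouse 2 and 395 to 473 in mouse 1, with a ratio of 0.321. It was thus below the Klra5 cluster in mouse 2 and above it in mouse 1.

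Differences between classes were tested on UMI sums per mouse and class with edgeR's quasi-likelihood test (Benjamini-Hochberg adjustment, 13487 genes). Without a term for the mouse, 0 of 10 members passed an adjusted p of 0.05 in either direction for epithelial-like barcodes against the mean of the 4 leukocyte-like classes. Of all genes tested 35.8% were called higher and 25.2% lower there. For each leukocyte-like class against the mean of the other 3, 0 of 10 members passed. Of all genes, 21% were called higher and 20.7% lower in T-cell- or innate-lymphoid-like barcodes, and 20.2% and 17.1% in plasma-cell-like barcodes. The shares were 6.07% and 4.17% in B-cell-like and 26.5% and 17.8% in myeloid-like barcodes. At an unadjusted p under 0.05 the count of members was 0 in all 5 comparisons, and DESeq2 called 0. The standard errors of the members' log2 differences were large, for example 2.62 for Ctrb1 and 1.00 for Cela1 in the epithelial-like comparison, where mouse 2 had 0 Ctrb1 UMIs in every class.

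The sums of a mouse come from the same animal, and with mouse as a block 3 calls appeared. Clps was higher in epithelial-like barcodes by 4.24 ± 1.15 (log2, SE) with an edgeR adjusted p of 0.00715, and Rnase1 by 3.63 ± 0.96 with an adjusted p of 0.00642, while 37.8% of all genes were called higher in this fit. In mouse 1 alone the difference was 0.58 for Clps and 0.95 for Rnase1 (log2, prior count of 0.5), so the size rests on mouse 2, where the leukocyte-like classes were near 0. Cela1 was higher in T-cell- or innate-lymphoid-like barcodes than in the other 3 leukocyte-like classes by 1.57 ± 0.39 with an adjusted p of 0.00713, where 24.6% of all genes were called higher. It was 0.92 higher in mouse 1 alone and 3.24 in mouse 2 alone.

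With crypt-type and enterocyte-like barcodes summed apart, a fit over 13204 genes that was chosen after the values were seen, 0 of 10 members passed without the mouse block against the mean of the other 5 classes, for either epithelial class. Of all genes, 29.9% were called higher and 19.3% lower in crypt-type barcodes, and 29.3% and 24.9% in enterocyte-like barcodes. With the block, Clps (5.08 ± 1.02, edgeR adjusted p = 0.000867) and Rnase1 (4.23 ± 0.81, adjusted p = 0.000610) were higher in crypt-type barcodes, where 32.1% of all genes were called higher. The 7 enzymes were lower there, by 0.88 (Try5) to 1.37 (Cela2a) on the log2 scale, where 21.9% of all genes were called lower. That call rests on mouse 1, which held nearly all their UMIs, and it concerns shares of UMIs, while the median count per barcode was 8 in this class and 6 to 9 in the others. Cela1 was higher in enterocyte-like barcodes by 1.41 ± 0.44 with an adjusted p of 0.0130, where 30.9% of all genes were called higher.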

How the data were processed

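Single-cell suspensions of 2 mice were sorted with DAPI to remove dead cells and sequenced with 10x 3′ chemistry. The authors made the deposited values, which are raw UMI counts per gene and barcode, with Cell Ranger 6.1.2 on mm10; the annotation release is not given in the sources used here. Nothing was normalized in the deposited counts. Samples were grouped by the labels (1 group, mouse 1 and mouse 2).

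The filters on barcodes are those in the report. Seurat 5.3.0 (R 4.3.3) clustered kept barcodes after RPCA integration with 2000 features, 30 dimensions and resolution 0.8, with the members and the other acinar genes barred from the features. A cluster took a class name from at least 3 fixed markers, or stayed unnamed; the cluster that this rule named goblet (Paneth at resolutions of 0.4 and 1.2) also held transit-amplifying and Paneth markers and is called crypt-type epithelial here. Doublets were kept, since the methods name no removal. Levels are CPM, the UMIs of a gene per 1000000 UMIs; intervals were made with scipy 1.17.1. Sums per mouse and class with at least 20 barcodes in each mouse were tested with edgeR 4.0.16 (TMM, filterByExpr, glmQLFTest, adjusted p under 0.05), with DESeq2 1.42.0 as an alternative; the edgeR step was tested on simulated data first. Sums of a mouse share an animal: deviations from class means correlated between classes by 0.176 to 0.585 over 10 pairs of classes. The p-values rest on 2 animals. Alternatives included clustering at resolutions of 0.4 and 1.2 and without integration.

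The named genes were all members, the 6 other acinar genes with the highest acinar level, the 5 genes most like the members (at least 200 UMIs) and 7 benchmark genes; islet, duct, cluster-leading genes and Tff2 were named after their values were seen. The members and lists were chosen with earlier results of these data known. No protein sequence was used here. Some genes of these lists are not reported here.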

Additional observations from a re-analysis of the deposited data

Results flagged for a closer look

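Barcodes that the filters removed also carried enzyme transcripts. In mouse 1, 1694 removed barcodes below the acinar limit held 21136 member UMIs, or 0.459% of their UMIs, with a median of 7 UMIs of the 7 enzymes, the same median as in the kept barcodes outside acinar cells. The 7 enzymes had similar proportions there, for example 27.5% Ctrb1 against 27.9% in kept barcodes, and the widest difference was 1.00 percentage points for Cela3b. In mouse 2, 1843 removed barcodes held 276 member UMIs, of which 170 were Cela1, 70 Clps and 36 Rnase1, and 0 came from the 7 enzymes. No control samples exist for these values, and they are above the limit that a count of 0 allows.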

How the results depend on the processing

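The share of UMIs in members (mouse 1, 0.122%) became 0.105%, 0.0927% and 0.281% with acinar limits of 5%, 1% and 50%, 0.125% with mitochondrial UMIs under 10%, 0.140% over all barcodes and 0.114% without Cela1. The share of barcodes with a member UMI (99.6%) became 70.9% after thinning to 1000 UMIs. The share of member UMIs in the upper 1% of barcodes (21.3%) became 9.58%, 5.11% and 62.4% with limits of 5%, 1% and 50%, 20.8% with mitochondrial UMIs under 10% and 21.8% over all barcodes. In mouse 2 the share of UMIs (0.00540%) became 0.00567%, 0.00566% and 0.00124% with mitochondrial UMIs under 10%, over all barcodes and without Cela1. Its share of barcodes (16.2%) became 15.3%, 14.5% and 0.776% in the same order and 6.91% after thinning, and its upper 1% (30.5% of member UMIs) became 33.1% over all barcodes.

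In edgeR with no filter on low counts, members called for epithelial-like barcodes rose from 0 to 4. Clps and Rnase1 were higher and Cela2a and Pnlip lower, while 5047 of all 20545 genes tested were called higher and 3796 lower. With the replicate block, 2 members were called. For T-cell- or innate-lymphoid-like barcodes the members called rose from 0 to 1 (Cela1) with no filter and with the block. Without the filter, 3610 of the 20545 genes were called higher in that class. With epithelial classes apart, the block moved the members called from 0 to 9 for crypt-type and from 0 to 1 for enterocyte-like barcodes. Genes called for B-cell-like barcodes were 2212 of 20545 tested with no filter, against 1380 of 13487 with it, so these counts have unlike totals. The cause of these changes was not tested. The block changed no other call on members. Leaving out a mouse leaves no test; the acinar limit of 1% in edgeR and the separate epithelial classes were chosen after seeing the data. DESeq2, resolutions of 0.4 and 1.2, clustering without integration and acinar limits of 5% and 1% called 0 members in the 5 comparisons. Of 50 member differences (10 members in 5 comparisons), none of which was called without the block and with the filter, the sign changed in 8 and 10 with limits of 5% and 1% (6 and 8 of them in plasma-cell-like barcodes), in 4 without mouse 2, in 8 without mouse 1, where the 25 differences of the 5 members with 0 UMIs in mouse 2 have no sign, and in 0 to 2 under each other alternative. Clps and Rnase1 in epithelial-like and Cela1 in T-cell- or innate-lymphoid-like barcodes kept their sign throughout.

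Depth limits the values of mouse 2, where 0 UMIs in a small class such as enterocyte-like barcodes allow up to 3.46 CPM.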
